A study of Komagataella phaffii GS115 with 6 samples.

Results

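Transcripts of 3 genes for protein oxidation repair and redox chemistry were followed in the methylotrophic yeast Komagataella phaffii GS115 (Pichia pastoris) after 48 h of culture. The genes are MXR1 (PAS_chr3_0066), a peptide methionine sulfoxide reductase, SRX1 (PAS_chr2-1_0236), a sulfiredoxin, and ustS (PAS_chr2-1_0748), whose nearest Swiss-Prot match is a glutathione S-transferase-like protein. They were picked by identifier, as 3 of the 115 genes in the authors' deposited table. The cells, labelled WT, were grown in BMMY with 1% maltose (3 libraries) or in BMMY alone (3 libraries). BMMY is a buffered complex medium with methanol, which was therefore present in both groups. The series concerns production of recombinant type III collagen and the effect of maltose on it. The labels do not say whether the WT cells carried a collagen gene, or whether libraries of a group came from separate cultures, so the spread between libraries may be technical.

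The values that chose these genes are their own fold changes between the media. In the authors' deposited table the smallest size of a log2 fold change, in either direction, was 1.00; 56 of the 115 genes were positive and 59 negative, and genes outside the table were not analysed here. The comparison of the media is therefore given below as a description, by levels, fold changes and their spread. Nothing is read from a call on the 3 genes. In the authors' deposited table MXR1 stood at -1.89, SRX1 at 1.12 and ustS at 1.09. Of the 56 positive genes, 24 had smaller values than SRX1 and 20 smaller than ustS, and their median was 1.16. Of the 59 negative genes, 13 were further down than MXR1.

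When this yeast grows on methanol, alcohol oxidase in the peroxisomes turns methanol and oxygen into formaldehyde and hydrogen peroxide. Peroxide oxidises methionine in proteins to methionine sulfoxide, which methionine sulfoxide reductases turn back into methionine with electrons from thioredoxin. Peroxide is itself removed by peroxiredoxins, whose active-site cysteine can be over-oxidised to sulfinic acid, and sulfiredoxin reverses that step at the cost of ATP. Glutathione S-transferases join glutathione to reactive compounds. In this species the name Mxr1 is also used for a zinc-finger regulator of methanol genes, which is another protein than the reductase described here.

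MXR1, the methionine repair enzyme, was the gene of the 3 that was lower with maltose. Its level in FPKM, a count of fragments scaled by gene length and by library size, was 249.5, 251.7 and 196.6 in maltose replicates 1, 2 and 3, against 1321, 1148 and 893 in BMMY replicates 1, 2 and 3. The lowest BMMY library was 3.55-fold above the highest maltose library. Groups did not overlap in 94.6% of the 112 tested genes of this table, which was selected on this contrast. The means were 233 ± 31.2 FPKM with maltose and 1121 ± 215.2 FPKM in BMMY (SD, n = 3 each), a log2 fold change of -2.27 (SE 0.22). That is a level 4.82-fold lower with maltose. Among the 115 genes, ordered by mean FPKM from the highest, MXR1 was at place 37 with maltose and at place 14 in BMMY. The counts behind these values were 3934 to 7824 with maltose and 27085 to 49529 in BMMY. Counting error alone, as a Poisson SD, was at most 1.59% of a value. The spread between libraries was larger, with a coefficient of variation of 13.4% with maltose and 19.2% in BMMY.

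SRX1, the enzyme that restores over-oxidised peroxiredoxin, was higher with maltose. Its level was 49.3, 50.3 and 49.6 FPKM in maltose replicates 1, 2 and 3, against 41.6, 22.6 and 24.4 FPKM in BMMY replicates 1, 2 and 3. The maltose libraries were nearly alike, while BMMY replicate 1 stood well above the other BMMY libraries. The groups did not overlap, as in 94.6% of the tested genes. The lowest maltose library was 1.19-fold above the highest BMMY library. The means were 49.8 ± 0.51 FPKM with maltose and 29.5 ± 10.5 FPKM in BMMY (SD, n = 3 each), a log2 fold change of 0.75 (SE 0.25), or 1.69-fold higher. SRX1 was the least abundant of the 3 genes per length in each of the 6 libraries. It was also the most thinly counted, with 704 to 1097 reads with maltose and 525 to 888 in BMMY. The exact 95% Poisson intervals, which cover counting error only, were 38.9 to 44.4 FPKM for BMMY replicate 1 and 46.0 to 53.4 FPKM for maltose replicate 3. The coefficient of variation was 1.02% with maltose, below the 3.02% to 3.77% that counting alone gives to each of these libraries, and 35.4% in BMMY. In the RefSeq gene order SRX1 overlaps the next gene, PAS_chr2-1_0237, by 11 of its 402 bases. Whether reads were counted by strand is not given in the sources used here, and reads in that stretch are uncertain.

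The ustS gene was also higher with maltose. In Aspergillus flavus the matched protein belongs to the gene cluster for ustiloxin B, a peptide toxin, and in K. phaffii the gene is annotated as a hypothetical protein, so its substrate is not given by the annotation. Its level was 984, 1001 and 1169 FPKM in maltose replicates 1, 2 and 3, against 845, 509 and 545 FPKM in BMMY replicates 1, 2 and 3. The groups did not overlap, as in 94.6% of the tested genes, and the lowest maltose library was 1.17-fold above the highest BMMY library. Maltose replicate 3 was the highest of all and BMMY replicate 1 was nearest to the maltose libraries. The means were 1052 ± 102.4 FPKM with maltose and 633 ± 184.3 FPKM in BMMY (SD, n = 3 each), a log2 fold change of 0.73 (SE 0.23), or 1.66-fold higher. It was counted more deeply than SRX1, with 49893 to 65821 reads with maltose and 35252 to 54297 in BMMY.

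**Figure D1:**
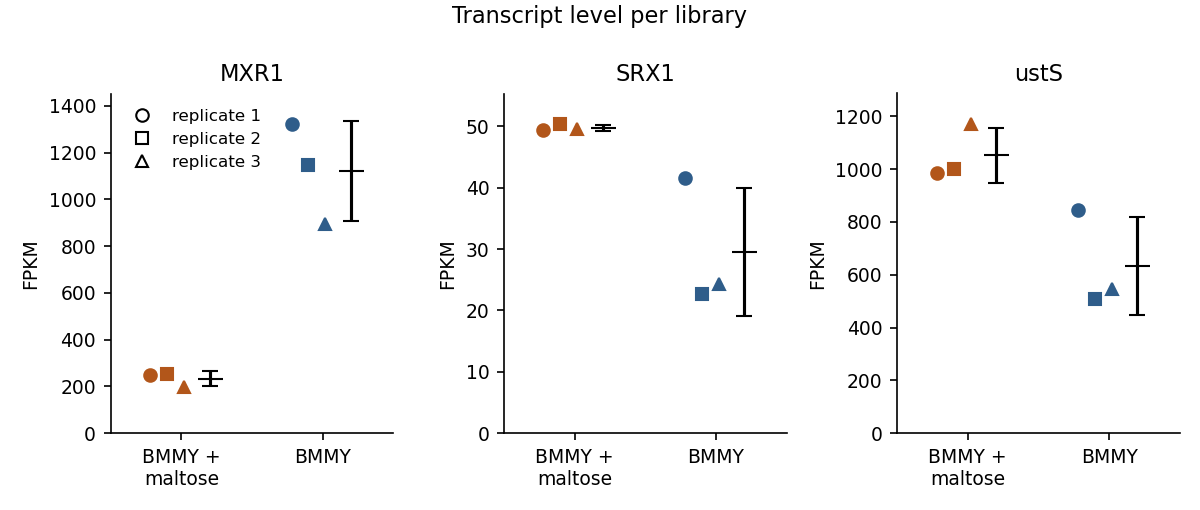
FPKM of MXR1, SRX1 and ustS in each library, with maltose on the left and BMMY on the right of each panel; symbols are replicates and the bars beside them are mean ± SD (n = 3). MXR1 lies between 196.6 and 251.7 FPKM in the maltose libraries, below all BMMY libraries, while SRX1 and ustS lie above BMMY, with BMMY replicate 1 nearest to them.

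BMMY replicate 1 held the highest BMMY value of all 3 genes. It was 1.29-fold above the mean of the other BMMY libraries for MXR1, 1.77-fold for SRX1 and 1.6-fold for ustS. For SRX1 and ustS this put it toward the maltose libraries, and for MXR1 away from them. Over the 112 tested genes the median of this ratio was 1.21, and BMMY replicate 1 was the highest BMMY library in 40 of the 49 genes called higher and in 23 of the 56 called lower. Without BMMY replicate 1 the log2 fold changes were -2.13 for MXR1, 1.08 for SRX1 and 1.00 for ustS. What set this library apart was not tested.

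Of the 112 genes with a mean of at least 1 FPKM, 105 had an adjusted p under 0.05 by the quasi-likelihood test of edgeR, a share of 93.8%, with 43.8% called higher and 50.0% called lower. The groups did not overlap in 94.6% of the tested genes. All 3 genes passed the filter on low values, and nothing is read from their place in these shares, since the list was selected on the same contrast. When single libraries were left out, the log2 fold change ran from -2.41 to -2.13 for MXR1, from 0.59 to 1.08 for SRX1 and from 0.60 to 1.00 for ustS. The lowest value of SRX1 and ustS came without BMMY replicate 2, and the highest without BMMY replicate 1.

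Ratios between genes of the same library do not depend on how libraries are scaled against each other. MXR1 was selected as lowered and SRX1 and ustS as raised, each by a log2 fold change of at least 1.00 in size. A wide gap between the media in the ratios of MXR1 to either gene is therefore largely set by the selection. The FPKM ratio of MXR1 to SRX1 was 5.06, 5.0 and 3.96 in maltose replicates 1, 2 and 3, against 31.8, 50.8 and 36.6 in BMMY replicates 1, 2 and 3. Every maltose library thus had far less methionine sulfoxide reductase transcript per sulfiredoxin transcript than any BMMY library. The mean log2 ratio was 2.22 ± 0.2 with maltose and 5.28 ± 0.35 in BMMY (SD, n = 3 each), a difference of -3.07, or an 8.38-fold lower ratio. With each library left out in turn this difference ran from -3.21 to -2.88. The order of MXR1 and ustS turned between the media. MXR1 was at 0.25, 0.25 and 0.17 of the ustS level in maltose replicates 1, 2 and 3, against 1.56, 2.25 and 1.64 of it in BMMY replicates 1, 2 and 3.

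SRX1 and ustS kept nearly the same proportion in all 6 libraries. The ratio of ustS to SRX1 was 20.0, 19.9 and 23.6 in maltose replicates 1, 2 and 3, against 20.3, 22.5 and 22.3 in BMMY replicates 1, 2 and 3. The groups overlapped, and the highest ratio was 1.19 times the lowest although SRX1 itself ranged from 22.6 to 50.3 FPKM. The mean log2 ratio was 4.4 ± 0.14 with maltose and 4.44 ± 0.08 in BMMY (SD, n = 3 each), a difference of -0.04 that is smaller than the spread within either group. Both genes were selected as raised on this contrast, so a similar ratio in the 2 media follows in part from the selection. The small difference was not particular to this pair. The log2 difference of SRX1 less that of the other gene was 0.03 for PAS_chr1-4_0659, -0.06 for EBP1 and 0.07 for FLD1. It was larger for FRE3, at -0.38. These genes are described below.

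**Figure D2:**
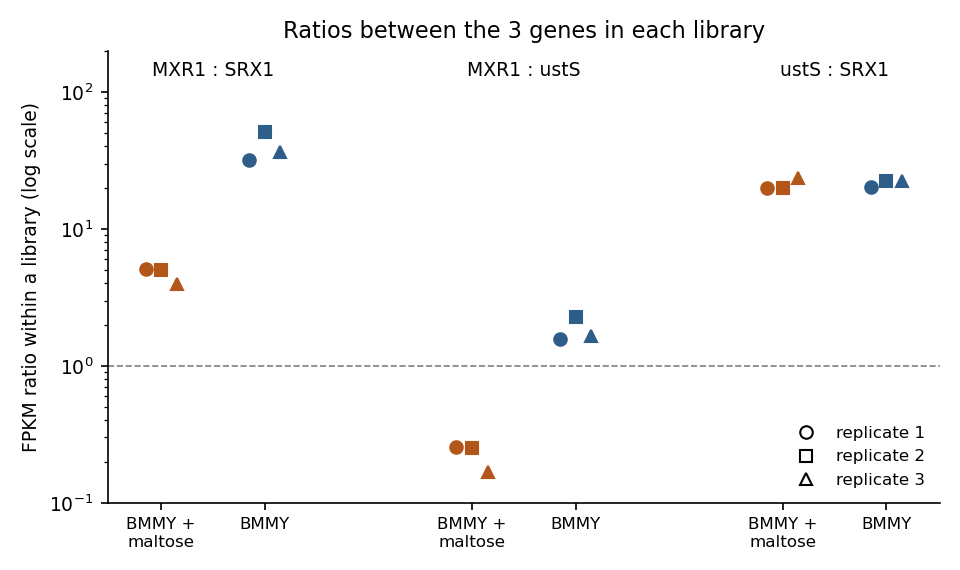
FPKM ratios between pairs of the 3 genes within each library, on a log axis, with maltose left of BMMY for each pair; symbols are replicates and the dashed line marks a ratio of 1. MXR1 to SRX1 is 3.96 to 5.06 with maltose and 31.8 to 50.8 in BMMY, MXR1 to ustS crosses 1, and ustS to SRX1 stays between 19.9 and 23.6.

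The genes with the most similar profiles are given for each of the 3 genes. MXR1 was selected as lowered and SRX1 and ustS as raised. That their nearest genes differ is therefore set by the selection, and nothing is read from it. Likeness was measured as the distance over the 6 libraries between log2(FPKM + 1) values centred on each gene's mean, among 111 other tested genes, with smaller values more alike. The 3 nearest to MXR1 were an arginase gene (CAR1, PAS_chr4_0684) at 0.46, CysA (PAS_chr2-1_0383) at 0.56 and the ornithine aminotransferase gene CAR2 (PAS_chr3_0410) at 0.61. The median distance was 3.54, which takes in the genes selected in the other direction. CysA is matched to a serine O-succinyltransferase and described in the same table as a homoserine O-acetyltransferase, an enzyme on the way to methionine. This CAR1 gene is close to MXR1 in level as well, with a mean of 220 ± 16.9 FPKM with maltose and 1149 ± 205.9 FPKM in BMMY (SD, n = 3 each). Another arginase gene with the symbol CAR1 (PAS_chr2-2_0288) was not. Its means were 24.0 ± 2.83 FPKM with maltose and 396 ± 56.2 FPKM in BMMY (SD, n = 3 each), a log2 fold change of -4.04.

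Nearest to SRX1 were FLD1 (PAS_chr3_1028), the glutathione-dependent formaldehyde dehydrogenase, at 0.19, the farnesyl pyrophosphate synthase gene FPS1 (PAS_chr1-4_0314) at 0.20 and the aldolase gene FBA1 (PAS_chr1-1_0319) at 0.21. Nearest to ustS were EBP1 (PAS_chr3_0377), a probable NADPH dehydrogenase, at 0.18, the mitochondrial aldehyde dehydrogenase gene ALD5 (PAS_chr3_0987) at 0.19 and FLD1 at 0.20. SRX1 and ustS were 0.22 apart, and each was at place 5 in the other's order. The median distance was 2.16 for SRX1 and 2.09 for ustS. MXR1 was at place 101 of 111 for both. Since raised genes and lowered genes form separate groups in this list, closeness within a group is partly set by the selection. The distance of MXR1 from SRX1 and ustS is largely set by it. None of the 6 immediate neighbours of the 3 genes in the RefSeq gene order was among the 115 genes. That annotation holds 5040 genes, so few neighbours would be in the table in any case, and nothing is read from this.

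**Figure D3:**
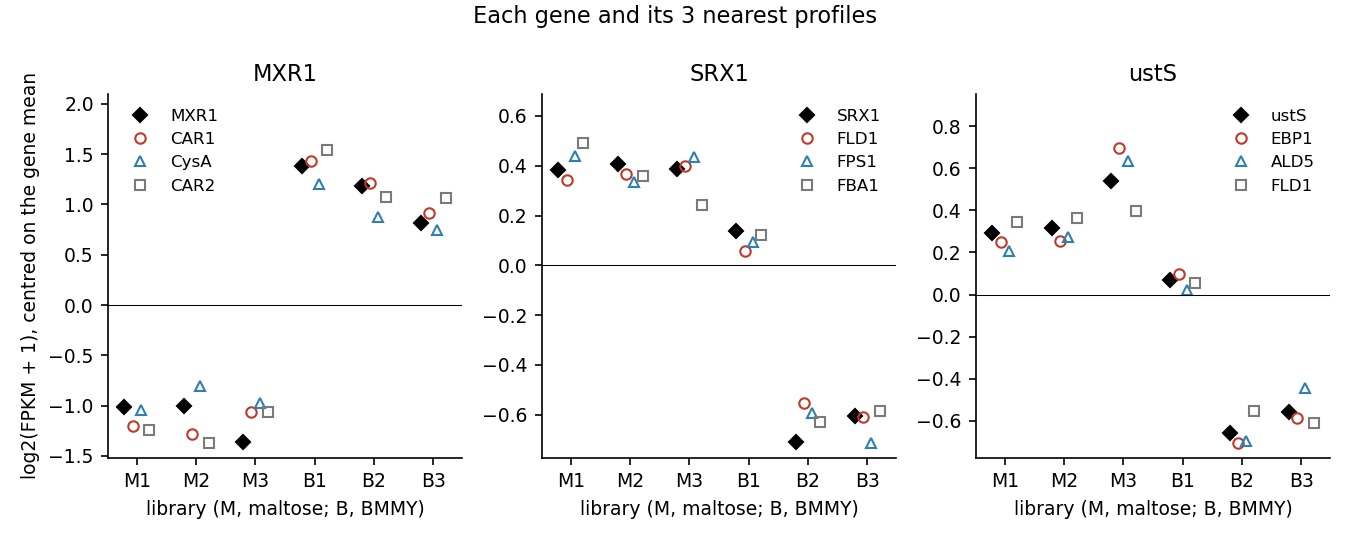
Centred log2(FPKM + 1) of MXR1, SRX1 and ustS (filled black diamonds) and of the 3 genes nearest to each (open symbols) in the 6 libraries, maltose libraries M1 to M3 on the left and BMMY libraries B1 to B3 on the right. The genes near SRX1 and ustS share the position of BMMY replicate 1 between the maltose libraries and the other BMMY libraries.

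For the wider redox and sulfur chemistry of the cell, 6 lists were matched to the table. They found 12 genes, the 3 genes above and 9 others. Of the 9 others, 3 were called higher and 5 lower, and 1 did not pass, beside the 43.8% called higher and 50.0% called lower over all tested genes. Their median log2 fold change was -1.34, beside -0.35 over all tested genes, and with the 3 genes included it was -0.34. The fall of -1.34 was the smallest among the tested genes, and the smallest rise was 0.63. No tested gene lay between them, so these medians follow the split into raised and lowered genes and do not measure the size of a shift. The table held 0 genes of the list for removal of superoxide, peroxide and nitric oxide (catalases and superoxide dismutases among them) and 0 of the list of redox regulators. The lists do not find every such gene of the table. Among those not matched were the dimethyl-sulfide monooxygenase genes dmoA (PAS_chr1-4_0437 at -1.63 and PAS_chr1-4_0681 at -2.77). The uncharacterized oxidoreductases YJR096W (0.80) and YDL114W (0.72) were not matched either.

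The thioredoxin, glutaredoxin and peroxiredoxin list held 1 gene besides SRX1 and MXR1, and it did not pass. It was PAS_chr1-4_0659, which has no symbol and is matched to a putative peroxisomal peroxiredoxin, a peroxide-removing enzyme. Its level was 224, 258 and 221 FPKM in maltose replicates 1, 2 and 3, against 233, 103 and 106 FPKM in BMMY replicates 1, 2 and 3. BMMY replicate 1 lay within the range of the maltose libraries, so the groups overlapped. The log2 fold change was 0.67 (SE 0.33), and the adjusted p was 0.0793 (edgeR). It passed in 5 of 15 alternatives, including the omission of BMMY replicate 1 (1.16), and turned to -0.13 with equal FPKM sums; the adjusted p ran from 4.01e-06 to 0.725.

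The glutathione list held 1 gene besides ustS, and it was called higher, as were 43.8% of all tested genes. This gene, FLD1, which oxidises the adduct of formaldehyde and glutathione, had 10329 ± 195.7 FPKM with maltose and 6336 ± 1717 FPKM in BMMY (SD, n = 3 each), a log2 fold change of 0.70 (SE 0.20). In the NADPH list, 2 of 4 were called higher and 2 lower, with a median log2 fold change of -0.41, beside -0.35 over all tested genes. Both medians lie in the range from -1.34 to 0.63, inside which no tested gene fell. EBP1, of the old yellow enzyme family, and FRE3 (PAS_chr4_0240), a ferric reductase, were 1.78-fold and 2.37-fold higher. The log2 fold change of EBP1 was 0.83, and its call was lost without maltose replicate 3 (0.66), BMMY replicate 2 (0.67) or BMMY replicate 3 (0.72). That of FLD1 was lost without BMMY replicate 2 (0.61). The calls of FLD1, EBP1 and FRE3 were lost under TMM scaling (0.25, 0.38 and 0.71) and under equal FPKM sums, where FLD1 turned to -0.13. TMM was kept out of the main fit because the deposited list may be selected for change. IDP2 (PAS_chr2-1_0580), an NADP-dependent isocitrate dehydrogenase that yields NADPH, and MET10, given next, were lower. IDP2 had 18.6 ± 1.34 FPKM with maltose and 72.9 ± 25.2 FPKM in BMMY (SD, n = 3 each).

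The list for sulfur assimilation, methionine and cysteine held 6 genes. A pair of these are genes described above, matched by a keyword in their descriptions: MXR1 repairs methionine in proteins and SRX1 acts on cysteine in peroxiredoxins, and neither makes a sulfur amino acid. The other 4 were all called lower, as were 50.0% of all tested genes. Their median log2 fold change was -1.53, beside -0.35 over all tested genes, a value near which no gene lay. Among genes called lower, the changes ran from -4.04 to -1.34, so -1.53 is toward the small end. The table was selected on this contrast. MET17 (PAS_chr4_0330), which builds sulfide into homocysteine, had 25.9 ± 7.19 FPKM with maltose and 111 ± 36.9 FPKM in BMMY (SD, n = 3 each), a log2 fold change of -2.10 (SE 0.31). MET10 (PAS_chr4_0369), a subunit of sulfite reductase, was at -1.66, MUP1 (PAS_chr2-1_0351), a methionine permease, at -1.41, and MET6 (PAS_chr2-1_0160), methionine synthase, at -1.34. CysA, described above as on the way to methionine, was at -1.94 but was not matched to the list, which is therefore not the whole pathway. Measured as the change in a ratio within libraries, which needs no scaling between them, the log2 difference of MXR1 less that of the other gene was -0.18 for MET17, -0.35 for IDP2 of the NADPH list, -0.60 for MET10, -0.86 for MUP1 and -0.89 for MET6. The value for MET17 is smaller than the SE of the MET17 fold change, and these differences between genes were not tested.

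**Figure D4:**
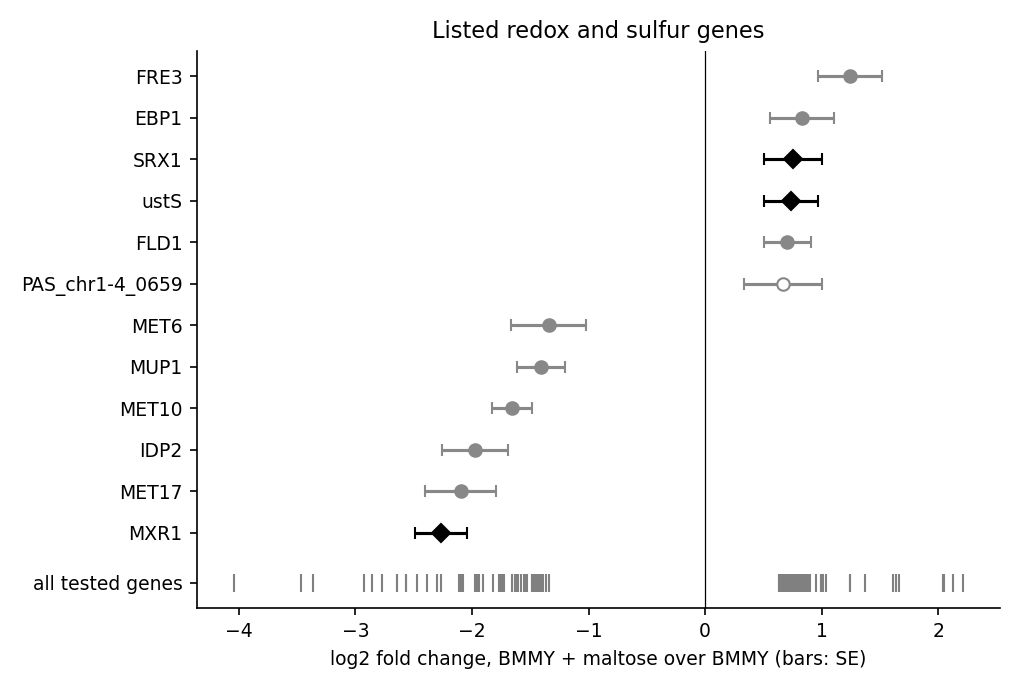
Log2 fold changes (BMMY with maltose over BMMY) of the 12 listed redox and sulfur genes with SE bars; black diamonds are MXR1, SRX1 and ustS, the open circle did not pass an adjusted p of 0.05, and grey ticks at the bottom are all 112 tested genes. MXR1, at -2.27, lies on the lower side with IDP2 and the sulfur genes MET17, MET10, MUP1 and MET6, and SRX1 and ustS, at 0.75 and 0.73, with FLD1 and EBP1 on the higher side.

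The size of each change, and for SRX1 and ustS the direction, depended on how libraries were scaled against each other. The library depths implied by counts and FPKM, which the values above use, were 35.3 to 55.3 M fragments with maltose and 53.2 to 76.1 M in BMMY. The authors' deposited log2 fold changes were above the log2 ratios of mean FPKM by 0.38 for MXR1, 0.37 for SRX1 and 0.36 for ustS. Scaling to equal FPKM sums over the listed genes shifted fold changes by a median of -0.86 and put SRX1 at -0.070 and ustS at -0.10, and with TMM they were at 0.31 and 0.28. The 49 genes called higher made up 96.4% to 97.0% of that sum in the maltose libraries and 89.0% to 90.2% in the BMMY libraries, so equal sums remove much of a rise by construction. MXR1 was lower with maltose under every scaling tried, from -3.12 to -1.89, and the 5 other lower list genes (MET6, MUP1, MET10, IDP2 and MET17) were called lower under each of them.

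**Figure D5:**
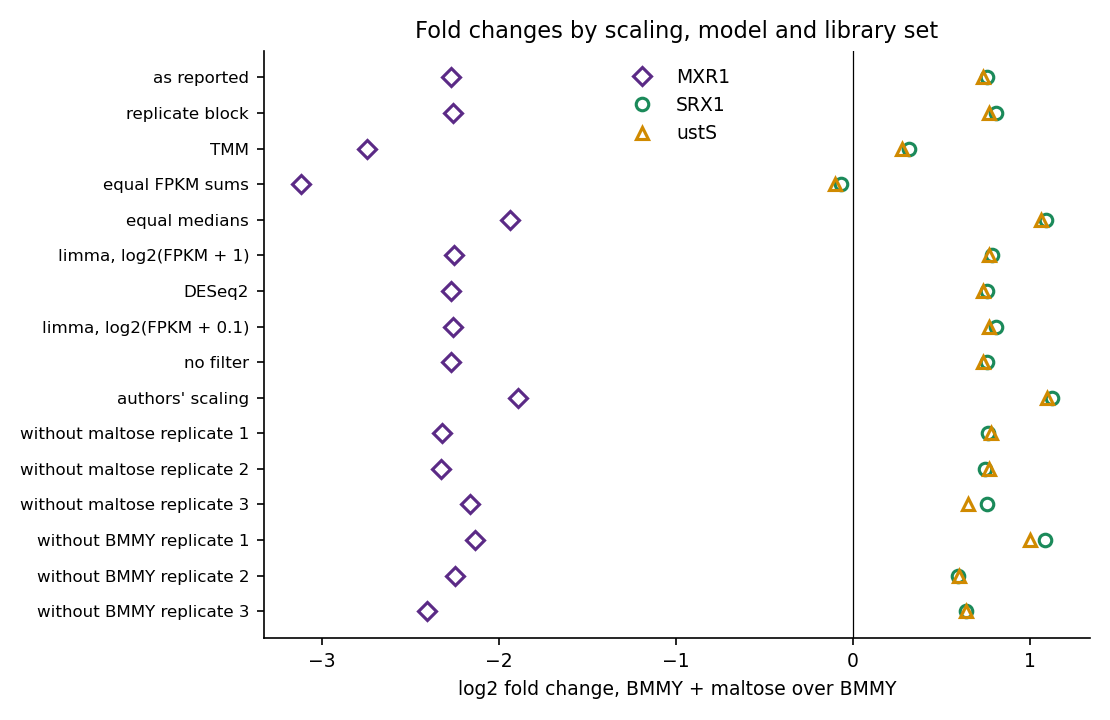
Log2 fold changes (BMMY with maltose over BMMY) of MXR1, SRX1 and ustS under each scaling, model and set of libraries. MXR1 stays between -3.12 and -1.89, and SRX1 and ustS move together and cross 0 with equal FPKM sums.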

How the data were processed

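The labels give 6 RNA-seq libraries of Komagataella phaffii GS115 at 48 h, 3 per medium. CASAVA, HISAT2 2.2.1 and StringTie are named without roles, per the submitters' processing notes. Build, annotation and strand setting were not given in the sources used here. Per the file headers, the table holds read counts and FPKM per library; the authors also deposited a p-value, which was not used, and a log2 fold change per gene. A symbol comes from each gene's Swiss-Prot match.

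The depth of a library is the count per FPKM and kilobase, at its median gene (lengths from RefSeq ASM2700v1; 115 of 115 identifiers matched). Genes with a mean of at least 1 FPKM (112 of 115) were tested with edgeR 4.0.16 in R 4.3.3 (quasi-likelihood test, two-sided, group as the only term, depths as library sizes), with Benjamini-Hochberg adjustment over the 112 genes and a threshold of 0.05. SEs are the absolute log2 fold change divided by the square root of F. On simulated counts for the 112 genes, 20 of 20 genes with a log2 change of 1 and 2 of 72 with none were called. The simulation gave every gene the same dispersion, set no library apart and used changes of 0, 1 and 2 in size. It therefore checks that the fit runs and does not measure how often changes like those of SRX1 and ustS are called in these libraries.

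The 3 genes and the gene lists were chosen with earlier results of these data known. Lists were matched by whole symbol or by a keyword in the protein description. Named genes were the 3 genes, every list match, and for each of the 3 the 3 tested genes with the nearest profile (Euclidean distance over 6 libraries of log2(FPKM + 1) centred on the gene mean). Alternatives were limma 3.58.1, DESeq2 1.42.0, other scalings, other filters and leaving out libraries. Replicate numbers were not treated as pairs, since the labels only number the libraries. Deviations of same-numbered libraries correlated at -0.20, 0.00066 and 0.00027, and those of differently numbered libraries at -0.17 to 0.28. With 3 libraries per group these values cannot decide whether the numbers mark pairs.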

Additional observations from a re-analysis of the deposited data

How the results depend on the processing

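With TMM, which shifted fold changes by a median of -0.49, 69 genes passed in place of 105, and 13 in place of 49 were higher. With equal FPKM sums 63 passed and 7 were higher. The redox and sulfur lists then had 6 called genes with either scaling in place of 11, and 0 higher in place of 5, by edgeR. At an unadjusted p under 0.05 by edgeR, 1 list gene was higher with TMM and 0 with equal FPKM sums. DESeq2 on the implied depths called 5 higher. These counts include the calls of the 3 genes, from which nothing is read. The 9 other list genes had 3 called higher and 5 lower in the main fit, and 0 higher and the same 5 lower with either scaling. SRX1 was at 0.31 with TMM and 1.12 with the authors' scaling, and turned to -0.070 with equal FPKM sums. The ustS gene was at 0.28, 1.09 and -0.10 under these scalings and at 1.06 with equal medians. MXR1 was at -2.74, -1.89, -3.12 and -1.94 with TMM, the authors' scaling, equal FPKM sums and equal medians. The authors' scaling, recovered from counts and fold changes of 92 genes, was added after seeing the data.

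With each library left out in turn, 85 to 111 genes passed, 29 to 56 of them higher. The lists, again with the 3 genes counted in, had 7 to 12 called genes, 1 to 6 of them higher. Leaving out BMMY replicate 2 gave the lowest of each of these. The lists had 3 higher genes without maltose replicate 3 and 3 without BMMY replicate 3. Fold changes ran from -2.41 to -2.13 for MXR1, 0.59 to 1.08 for SRX1 and 0.60 to 1.00 for ustS. With the replicate block the same number of genes passed (105), SRX1 was at 0.81 and ustS at 0.77. The ratio of MXR1 to SRX1 differed by -3.04 with FPKM + 1. The other alternatives moved no fold change of the 3 genes, and neither ratio, by more than the spread between replicates, and no count by over 1.5 times. SRX1, at 525 to 1097 reads, is the gene of the 3 whose single values depth limits most.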
